A study of Arabidopsis thaliana with 10 samples.

Results

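Plants build tryptophan in the plastid from chorismate, the end product of the shikimate pathway. Anthranilate synthase, made of an alpha and a beta subunit, turns chorismate into anthranilate. The phosphoribosyltransferase PAT1, a phosphoribosylanthranilate isomerase, indole-3-glycerol phosphate synthase and tryptophan synthase, again made of alpha and beta subunits, then carry out the remaining steps. Tryptophan is used for protein, for the auxin indole-3-acetic acid and, in crucifers, for indole glucosinolates and camalexin, which deter herbivores and pathogens. Several of the steps are encoded by more than 1 gene in Arabidopsis. The 10 genes described here were chosen by identifier to cover every step, from the 32833 genes in the deposited tables, with earlier results of these data known. They are ASA1 (AT5G05730) and ASA2 (AT2G29690) for the alpha subunit of anthranilate synthase, ASB1 (AT1G25220) for its beta subunit, PAT1 (AT5G17990, also TRP1), the isomerase gene PAI1 (AT1G07780), IGPS (AT2G04400) and a relative called IGPS-like here (AT5G48220), the tryptophan synthase alpha gene TSA1 (AT3G54640), and the beta genes TSB1 (AT5G54810) and TSB2 (AT4G27070). TSA1 is here the annotation's symbol for AT3G54640 and not the gene that the study shows under this symbol next to BGLU18.

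RNA was sequenced from whole 10-day-old Arabidopsis thaliana Col-0 wild-type seedlings that had been exposed to gaseous methyl jasmonate, a volatile form of the hormone jasmonic acid (JA), for 2 h, or had been left untreated. Set1 held 2 Set1_2hJA and 2 Set1_ctrl libraries, and Set2 held 3 Set2_2hJA and 3 Set2_ctrl libraries. Total expected counts were between 12147941 and 17200426 in Set1 and between 6333822 and 7774547 in Set2, so that low levels rest on fewer counts in Set2. Levels are given as TPM, the share of a gene among all transcripts after scaling for transcript length, and differences as log2 fold changes of 2hJA over ctrl from edgeR. Genes counted as induced had an adjusted p (Benjamini-Hochberg) no higher than 0.05 and rose at least 2-fold. Because whole seedlings were used, more RNA per cell and more cells of a type that transcribes a gene cannot be told apart.

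The libraries differed in composition. Markers of shoot (3 of 3) and of root (4 of 4) were detected in every library. Of seed markers 1 to 3 of 3 were detected, and of flower markers 0 to 3 of 3. Summed TPM was 28119 to 54744 for shoot and 956 to 1832 for root markers. It was at most 8.44 for seed markers and at most 7.73 for flower markers, which were highest in Set2_2hJA replicate 1. Most of the root sum was the marker PYK10, with 941 of 956 TPM in Set1_ctrl replicate 1. Genes of the plastid genome took 11.4% and 0.684% of the counts in Set1_2hJA replicates 1 and 2, and 13.8% and 1.87% in Set1_ctrl replicates 1 and 2. In Set2 this share was 2.61% in Set2_2hJA replicate 1 and at most 0.377% in the others. In Set1, the replicate 1 library had the lower TPM for 9 of the 10 genes in Set1_2hJA and for 10 of the 10 in Set1_ctrl. With organelle and ribosomal RNA genes removed before the fit, the number of induced genes among the 10 was the same, 7 in Set1 and 6 in Set2.

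The stretch of 250 bases before the annotated start was read from TAIR10.1 to show the DNA upstream of genes for the same enzyme that responded and did not respond. A pair of 6-base motifs were searched on both strands, the G-box CACGTG, which the JA transcription factor MYC2 binds, and the related CACGTT, whose reverse complement is AACGTG. The 5 stretches below belong to genes of the first step and of indole-3-glycerol phosphate synthase. None of them overlaps an annotated exon of another gene. Each is written in the direction of transcription, with a motif in capitals.
ASA1 (chr5:1722934-1723183, minus strand): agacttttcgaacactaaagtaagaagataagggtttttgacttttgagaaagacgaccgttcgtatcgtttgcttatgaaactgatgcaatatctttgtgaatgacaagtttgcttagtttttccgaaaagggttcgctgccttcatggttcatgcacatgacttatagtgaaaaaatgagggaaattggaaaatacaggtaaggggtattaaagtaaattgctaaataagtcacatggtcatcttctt
ASA2 (chr2:12693484-12693733, plus strand): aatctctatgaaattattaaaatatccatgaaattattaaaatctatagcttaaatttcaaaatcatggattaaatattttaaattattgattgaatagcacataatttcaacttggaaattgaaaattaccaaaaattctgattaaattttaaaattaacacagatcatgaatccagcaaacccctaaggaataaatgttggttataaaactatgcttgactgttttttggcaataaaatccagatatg
ASB1 (chr1:8839610-8839859, minus strand): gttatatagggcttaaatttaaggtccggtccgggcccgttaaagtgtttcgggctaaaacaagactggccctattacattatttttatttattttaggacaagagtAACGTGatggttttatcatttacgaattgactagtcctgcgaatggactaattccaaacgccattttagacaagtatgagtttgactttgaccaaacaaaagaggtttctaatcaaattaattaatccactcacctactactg
IGPS (chr2:1530898-1531147, plus strand): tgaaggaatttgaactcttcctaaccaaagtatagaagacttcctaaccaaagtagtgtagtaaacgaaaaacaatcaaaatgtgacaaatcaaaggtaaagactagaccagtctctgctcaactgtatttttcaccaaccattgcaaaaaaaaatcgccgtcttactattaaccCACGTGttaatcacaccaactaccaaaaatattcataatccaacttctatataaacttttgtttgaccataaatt
IGPS-like (chr5:19549426-19549675, plus strand): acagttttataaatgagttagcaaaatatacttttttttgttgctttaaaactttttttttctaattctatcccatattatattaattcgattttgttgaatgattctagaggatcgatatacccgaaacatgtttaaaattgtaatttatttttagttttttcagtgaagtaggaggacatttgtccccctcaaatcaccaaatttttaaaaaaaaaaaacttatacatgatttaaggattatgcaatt
IGPS held a CACGTG that begins 75 bases upstream of the start, and ASB1 a CACGTT, read here as AACGTG, that begins 143 bases upstream. The stretches of the other 8 genes held neither, among them ASA1, which had the largest change of the 10. So 2 of the 10 genes had one of the motifs in this window, against 13.3% of 27443 promoters of the same length, of which 6.49% held CACGTG and 7.54% held CACGTT. A match describes the letters only, and this window is short.

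In the fit of both sets at least 1 gene was induced at every step of the pathway, at the isomerase step the copy PAI2, which is not among the 10 genes. The same held in Set1, and in Set2 at every step except that of PAT1, which fell short of 2-fold there. ASA2, PAI1 and IGPS-like, which share their step with an induced gene, did not pass the test. Of the 10 genes, 7 were induced in Set1 and 6 in Set2, where 2.94% of 20098 and 1.78% of 19259 tested genes were. In a fit of both sets, with the set as a covariate, 7 of the 10 were induced, against 2.63% of 20213 genes. There were 6 of the 10 induced in both sets, against 1.51% of the 19002 genes tested in each. Because the 10 genes were chosen with earlier results known, these shares describe the list and do not test it. None of the 10 was repressed, against 2.2% of genes in Set1, 0.758% in Set2 and 1.4% in the fit of both sets. Their median log2 fold change was 1.53 in Set1, 1.29 in Set2 and 1.41 in the fit of both sets, against −0.02, 0.01 and 0.01 for all genes tested. CPM are counts scaled to the library total multiplied by the TMM normalization factor of edgeR. In CPM every Set1_2hJA library was above every Set1_ctrl library for 8 of the 10 genes, which 24.2% of tested genes also showed. Every Set2_2hJA library was above every Set2_ctrl library for 7 of the 10, against 10.8%. For these 7 genes it held in both sets, against 7.06% of the genes tested in both.

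**Figure D1:**
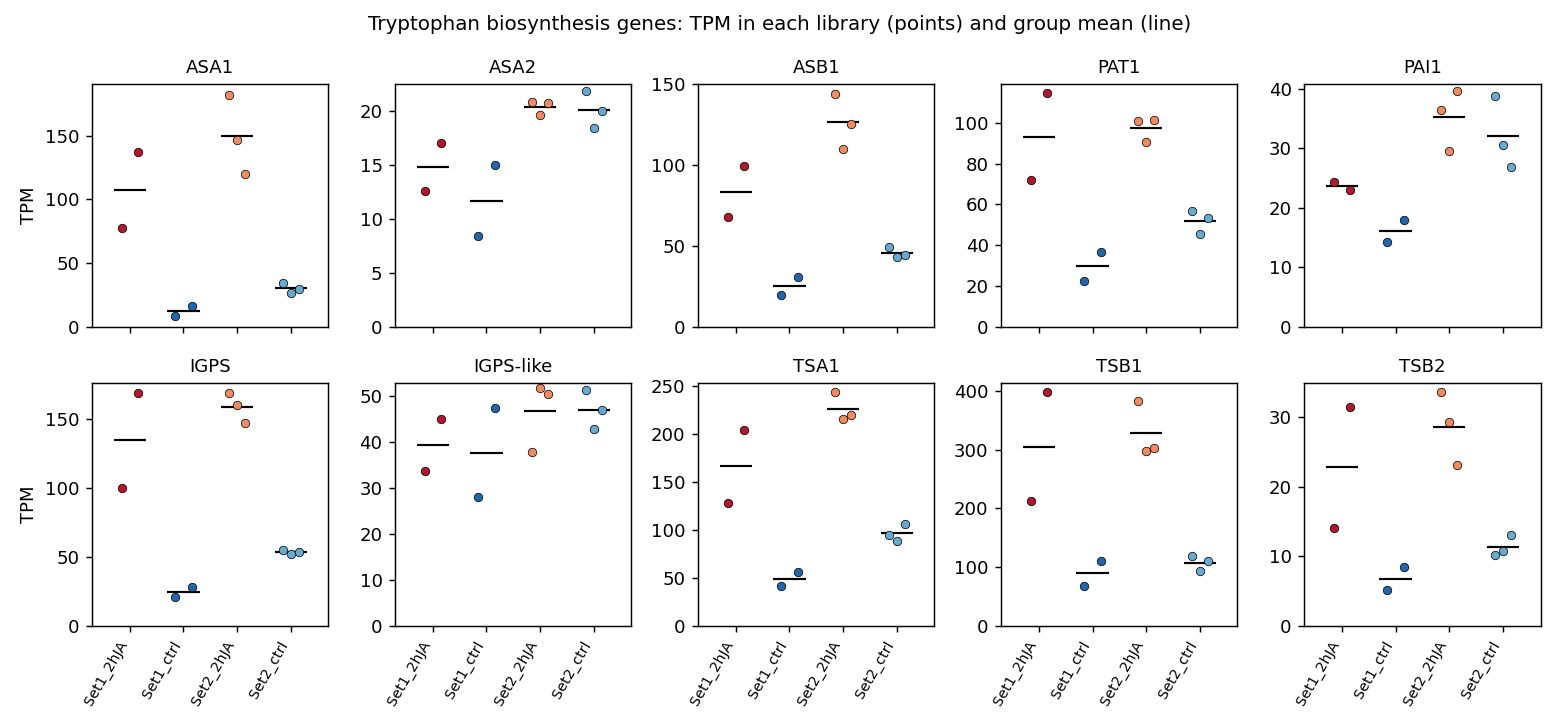
TPM of the 10 genes in each library (points; vertical axes start at 0 and differ between panels) with the group mean (line), for Set1_2hJA, Set1_ctrl, Set2_2hJA and Set2_ctrl from left to right. ASA1, ASB1, PAT1, IGPS, TSA1, TSB1 and TSB2 separate the 2hJA libraries from the ctrl libraries of their set, and in ASA2 and IGPS-like the points of the groups overlap.

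Anthranilate synthase alpha, the feedback-regulated entry point of the pathway, had the clearest contrast between a pair of genes. ASA1 had 77.7 and 138 TPM in Set1_2hJA, against 8.72 and 16.5 TPM in Set1_ctrl. In Set2 it had 182, 147 and 120 TPM in Set2_2hJA, against 34.3, 26.7 and 29.4 TPM in Set2_ctrl. The lowest 2hJA library was above the highest ctrl library in each set. The change was 7.54-fold in Set1 (log2 2.91 ± 0.22, SE, adjusted p = 0.000722) and 4.97-fold in Set2 (log2 2.31 ± 0.16, SE, adjusted p = 0.000147), and 5.91-fold in the fit of both sets (95% interval 2.22 to 2.91 on the log2 scale, adjusted p = 1.6e-06). By size of change ASA1 ranked 138 of 20213 genes. ASA2, which encodes the same subunit, had 12.7 and 17.1 TPM in Set1_2hJA, against 8.40 and 15.02 TPM in Set1_ctrl. In Set2 it had 20.9, 19.7 and 20.8 TPM in Set2_2hJA, against 21.9, 18.5 and 20.1 TPM in Set2_ctrl. These TPM values overlapped in both sets, while in CPM the Set1 groups of ASA2 did not, and the log2 fold change was 0.10 in the fit of both sets (95% interval −0.09 to 0.29, adjusted p = 0.514). In the TAIR10.1 build, ASA1 lies on chromosome 5 (1719533 to 1722933, minus strand) and overlaps 2 genes on the plus strand, AT5G05720 and AT5G05735, so that reads of the overlap are uncertain, since use of the strand in counting is not stated in the sources used here. ASA2 on chromosome 2 (12693734 to 12697091, plus strand) overlaps no annotated gene.

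The beta subunit of anthranilate synthase supplies ammonia from glutamine. ASB1 had 67.7 and 99.1 TPM in Set1_2hJA, against 19.9 and 30.6 TPM in Set1_ctrl. It had 144, 110 and 125 TPM in Set2_2hJA, against 49.6, 42.9 and 44.2 TPM in Set2_ctrl. ASB1 lies on chromosome 1 (8836835 to 8839609, minus strand). It overlaps AT1G25211 and AT1G05933 on the plus strand and AT1G05927 on its own strand. The groups did not overlap, and the increase was of nearly the same size in both sets, 2.89-fold in Set1 (adjusted p = 0.00272) and 2.78-fold in Set2 (adjusted p = 0.00032). Its counts are uncertain in part, since 23.3% of its 75-base windows also occur in 4 relatives on chromosome 1 and its expected counts were not whole in any library. These 4 relatives (AT1G24807, AT1G24909, AT1G25083 and AT1G25155) were not tested because of low counts, and the highest value among them was 9.45 TPM, for AT1G24807 in Set2_2hJA replicate 1. The more distant copy ASB2 (AT5G57890) had 12.4 and 13.2 TPM in Set1_2hJA and 8.25 and 13.8 TPM in Set1_ctrl, and 17.8, 21.4 and 22.5 TPM in Set2_2hJA and 21.2, 15.7 and 14.5 TPM in Set2_ctrl. ASB2 did not pass the test (log2 0.20 in the fit of both sets, 95% interval −0.11 to 0.51, adjusted p = 0.426). The counts of ASB2 are also uncertain in part, and with them the ASB1/ASB2 ratio below. Of its 75-base windows 16.9% also occur in the 4 relatives on chromosome 1, and its expected counts were not whole in any library. Summed over genes, alpha subunit TPM was 1.25 ± 0.18 times beta subunit TPM in Set1_2hJA and 0.66 ± 0.07 times in Set1_ctrl (SD, n = 2 each), and 1.13 ± 0.16 times in Set2_2hJA and 0.79 ± 0.04 times in Set2_ctrl (SD, n = 3 each). In each set every 2hJA library had the higher ratio. A further relative annotated as an ADC synthase family protein, AT3G55870, had between 0 and 9 counts per library and was not tested.

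PAT1, which adds phosphoribose to anthranilate and is the gene of this step, had 71.8 and 115 TPM in Set1_2hJA, against 22.3 and 36.9 TPM in Set1_ctrl. In Set2 it had 101, 90.6 and 101 TPM in Set2_2hJA, against 57.0, 45.3 and 53.5 TPM in Set2_ctrl. The groups did not overlap in either set. PAT1 lies on chromosome 5 (5957080 to 5960201, plus strand), and overlaps AT5G18000 on the opposite strand. It was the 1 gene whose call differed between the sets, being 2.76-fold higher in Set1 (adjusted p = 0.00442) and 1.89-fold higher in Set2, where the adjusted p was 0.00271 and the change fell short of 2-fold. Without Set2_ctrl replicate 1 the log2 fold change in Set2 was 1.01 (adjusted p = 0.0051), past the threshold. In the fit of both sets the change was 2.22-fold (adjusted p = 6.99e-05), with a 95% interval of 0.88 to 1.42 on the log2 scale, which includes changes of less than 2-fold.

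At the isomerase step the gene of the list did not pass the test and a close copy did. PAI1 had 24.3 and 23.1 TPM in Set1_2hJA, against 14.3 and 17.9 TPM in Set1_ctrl. It had 36.5, 29.5 and 39.6 TPM in Set2_2hJA, against 38.7, 30.5 and 26.9 TPM in Set2_ctrl, so the groups overlapped in Set2, and in CPM also in Set1. The log2 fold change in the fit of both sets was 0.25 (95% interval −0.07 to 0.57, adjusted p = 0.324). PAI1 lies on chromosome 1 (2409865 to 2412777, minus strand). PAI2 (AT5G05590), on chromosome 5 (1666471 to 1668569, minus strand), had 25.6 and 42.0 TPM in Set1_2hJA, against 2.82 and 7.28 TPM in Set1_ctrl, and 40.9, 43.0 and 37.5 TPM in Set2_2hJA, against 7.19, 8.07 and 11.6 TPM in Set2_ctrl. The lowest PAI2 level with JA was above the highest level without it, and the change was 6.14-fold in Set1 (adjusted p = 0.0024), 4.71-fold in Set2 (adjusted p = 0.000321) and 5.31-fold in both (adjusted p = 3.78e-06). PAI3 (AT1G29410) was at 3.89 to 4.04 TPM in Set1_2hJA and 3.02 to 6.21 TPM in Set1_ctrl, and at 4.71 to 7.19 TPM in Set2_2hJA and 6.35 to 9.35 TPM in Set2_ctrl, and did not pass the test (log2 −0.31, adjusted p = 0.333). The split between PAI1 and PAI2 is uncertain, because 48.9% of the 75-base windows of PAI2 also occur in PAI1 and their counts were estimated from shared reads. PAI1 also shares a few windows with AT1G07770, and PAI2 overlaps AT5G05580 on the opposite strand. The TPM of the 3 isomerase genes summed, which can still shift with the split because the genes differ in length, was 61.4 ± 10.6 TPM in Set1_2hJA and 25.8 ± 7.92 TPM in Set1_ctrl (SD, n = 2 each), and 81.7 ± 2.74 TPM in Set2_2hJA and 48.5 ± 3.86 TPM in Set2_ctrl (SD, n = 3 each).

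Indole-3-glycerol phosphate synthase closes the pyrrole ring of indole. IGPS had 99.9 and 169 TPM in Set1_2hJA, against 20.9 and 28.2 TPM in Set1_ctrl. It had 169, 160 and 147 TPM in Set2_2hJA, against 54.7, 51.7 and 53.3 TPM in Set2_ctrl. The levels of the groups were far apart, and the change was 4.67-fold in Set1 (adjusted p = 0.00124) and 2.997-fold in Set2 (adjusted p = 0.000133), the second largest of the 10 genes after ASA1 in the fit of both sets (log2 1.85 ± 0.13, SE). IGPS-like had 33.8 and 45.0 TPM in Set1_2hJA, against 28.1 and 47.4 TPM in Set1_ctrl, and 38.0, 51.8 and 50.5 TPM in Set2_2hJA, against 51.3, 43.0 and 47.1 TPM in Set2_ctrl. These values overlapped in both sets, and the log2 fold change of both sets was −0.01 (95% interval −0.26 to 0.24, adjusted p = 0.978). IGPS lies on chromosome 2 (1531148 to 1533737) and IGPS-like on chromosome 5 (19549676 to 19552267), both on the plus strand. Both genes overlap a neighbour on the opposite strand, IGPS the gene AT2G04410 and IGPS-like the gene AT5G48230. Expected counts of IGPS-like were not whole in 9 of the 10 libraries. Its level, and with it the ratio of IGPS to IGPS-like below, is therefore uncertain in part.

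Tryptophan synthase alpha releases indole, which passes to the beta subunit. TSA1 had 128 and 205 TPM in Set1_2hJA, against 41.0 and 55.9 TPM in Set1_ctrl. It had 243, 215 and 220 TPM in Set2_2hJA, against 94.4, 88.6 and 107 TPM in Set2_ctrl. With no overlap in either set, it was 2.95-fold higher in Set1 (adjusted p = 0.00379) and 2.36-fold higher in Set2 (adjusted p = 0.000386). The 95% interval in Set2 was 0.99 to 1.48 on the log2 scale, which includes changes of less than 2-fold. TSA1 lies on chromosome 3 (20223034 to 20225523, minus strand) and overlaps no annotated gene. INS (AT4G02610), an indole synthase related to the alpha subunit, was at 17.7 and 20.1 TPM in Set1_2hJA and 16.1 and 21.6 TPM in Set1_ctrl, and at 19.5, 21.5 and 21.7 TPM in Set2_2hJA and 18.4, 19.6 and 20.04 TPM in Set2_ctrl. It did not pass the test in the fit of both sets (adjusted p = 0.997).

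The beta subunit joins indole to serine, and here both genes of the list were induced. TSB1 had 213 and 398 TPM in Set1_2hJA, against 68.0 and 111 TPM in Set1_ctrl. It had 383, 298 and 303 TPM in Set2_2hJA, against 119, 93.2 and 111 TPM in Set2_ctrl. It had the highest mean TPM of the 10 genes in all 4 groups, and rose 2.95-fold in Set1 (adjusted p = 0.00634) and 3.05-fold in Set2 (adjusted p = 0.000347). TSB2 had 14.1 and 31.5 TPM in Set1_2hJA, against 5.09 and 8.40 TPM in Set1_ctrl. It had 33.6, 29.3 and 23.1 TPM in Set2_2hJA, against 10.2, 10.7 and 13.1 TPM in Set2_ctrl. TSB2 thus stood at a lower level and changed by 2.89-fold in Set1 (adjusted p = 0.0173) and 2.55-fold in Set2 (adjusted p = 0.00127). Its 95% interval in Set1 was 0.92 to 2.14 on the log2 scale, which includes changes of less than 2-fold. TSB1 lies on chromosome 5 (22264594 to 22266902, minus strand) and TSB2 on chromosome 4 (13586268 to 13588897, plus strand), with no overlapping gene. The Set1 call of TSB2 rested on Set1_2hJA replicate 2, the library with the higher level: without it the log2 fold change was 1.14 and the adjusted p was 0.0515. The TPM of TSB1 and TSB2 summed was divided by that of TSA1 alone, without INS. This ratio was 1.94 ± 0.23 in Set1_2hJA and 1.96 ± 0.25 in Set1_ctrl (SD, n = 2 each). It was 1.57 ± 0.12 in Set2_2hJA and 1.24 ± 0.12 in Set2_ctrl (SD, n = 3 each). The tryptophan synthase beta type 2 gene TSBtype2 (AT5G38530) did not pass the test (log2 0.20, adjusted p = 0.252). A TSB-like gene, AT5G28237, had 24 and 51 counts in Set1_2hJA, against 1 and 1 in Set1_ctrl, and 40, 13 and 3 counts in Set2_2hJA, against 2, 1 and 0 in Set2_ctrl. The ratio of its summed counts per library total was 32.0 in Set1 (exact 95% interval for counting error 8.54 to 269) and 17.4 in Set2 (5.67 to 87.1), at a level of at most 4.37 TPM. It was called in Set1 and in the fit of both sets, and was too low to be tested in Set2. In Set2 most of its counts came from Set2_2hJA replicate 1.

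**Figure D2:**
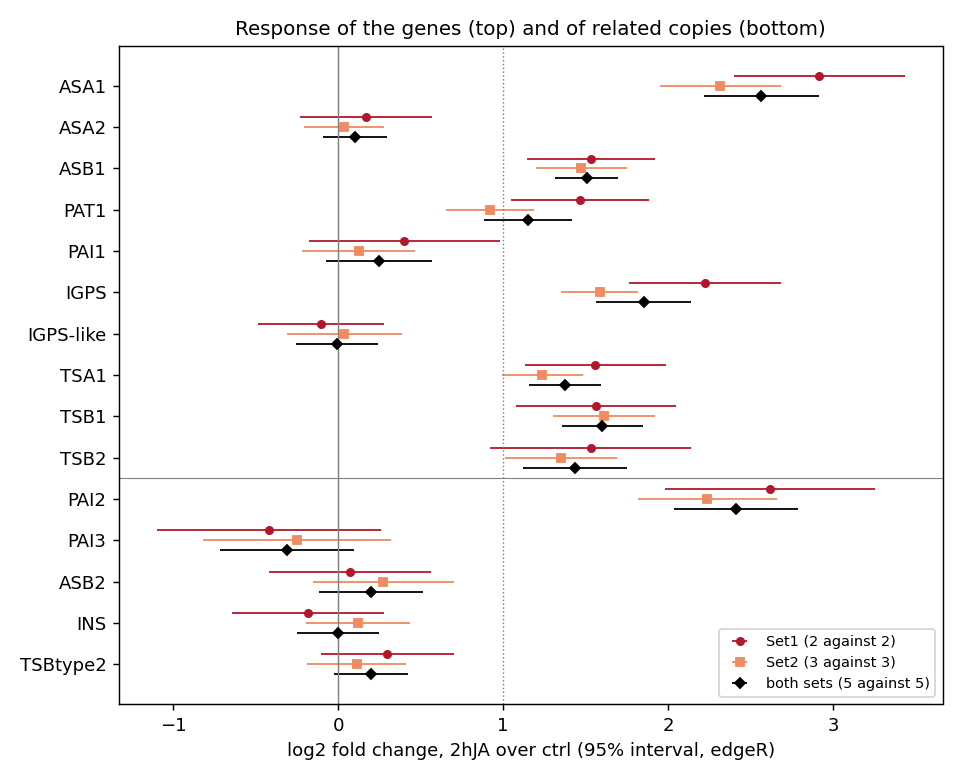
Log2 fold changes of 2hJA over ctrl with 95% intervals in Set1 (circles), Set2 (squares) and the fit of both sets (diamonds), for the 10 genes above the line and 5 related copies below it. The dotted line marks 2-fold. Of the genes drawn, ASA1 (log2 2.56) and PAI2 (log2 2.41) lie farthest to the right in the fit of both sets. The intervals of ASA2, PAI1, IGPS-like, PAI3, ASB2, INS and TSBtype2 cross 0. The TSB-like gene AT5G28237, called in the fit of both sets at log2 4.23, is not drawn.

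Whether genes for the same step changed by the same factor was asked of 6 pairs, with the log2 ratio of their TPM values (pseudocount 0.1 TPM) and a two-sided exact permutation test of the 2hJA and ctrl labels within each set. There are 120 arrangements, and the smallest p this design can give is 0.0167. The ratio differed in 5 of the 6 pairs, each at that smallest p and an adjusted p of 0.02 over the pairs. This test exchanges labels freely within a set and so does not use the pairing of the Set2 libraries by replicate number. With labels swapped only within the Set2 pairs there are 48 arrangements, and the same 5 pairs had the smallest p this allows by the exact test, 0.0417, with an adjusted p of 0.05. With Set1 paired as well, the smallest possible p is 0.0625, so no pair could pass. The ASA1/ASA2 ratio averaged 2.80 ± 0.28 on the log2 scale in Set1_2hJA and 0.09 ± 0.06 in Set1_ctrl (SD, n = 2 each), and 2.84 ± 0.30 in Set2_2hJA and 0.57 ± 0.06 in Set2_ctrl (SD, n = 3 each). ASA1 thus made up 87.5% of the TPM of the pair in Set1_2hJA and 51.6% in Set1_ctrl, and 87.7% in Set2_2hJA and 59.9% in Set2_ctrl. The log2 ratio of IGPS to IGPS-like was higher with JA by 1.96 on average over the sets. IGPS was 76.8% of the pair in Set1_2hJA and 40.0% in Set1_ctrl, and 77.2% in Set2_2hJA and 53.1% in Set2_ctrl. The ratio was also higher with JA for ASB1/ASB2 (by 1.33) and TSA1/INS (by 1.43). For PAI1/PAI2 the difference was −2.16, with PAI1 at 39.3% of the 3 isomerase genes in Set1_2hJA and 64.0% in Set1_ctrl, and at 42.9% in Set2_2hJA and 65.9% in Set2_ctrl. TSB1/TSB2 was the pair without a call (difference 0.17, adjusted p = 0.15 by the exact test), but with a pseudocount of 1 TPM in place of 0.1 it passed (difference 0.26, adjusted p = 0.05 by the exact test), so its call depends on that choice. TSB1 made up 93.2% of that pair in Set1_2hJA and 93.0% in Set1_ctrl, and 92.0% in Set2_2hJA and 90.4% in Set2_ctrl. Since the pairs were chosen with the fold changes known, these tests describe the size of an imbalance already seen.

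**Figure D3:**
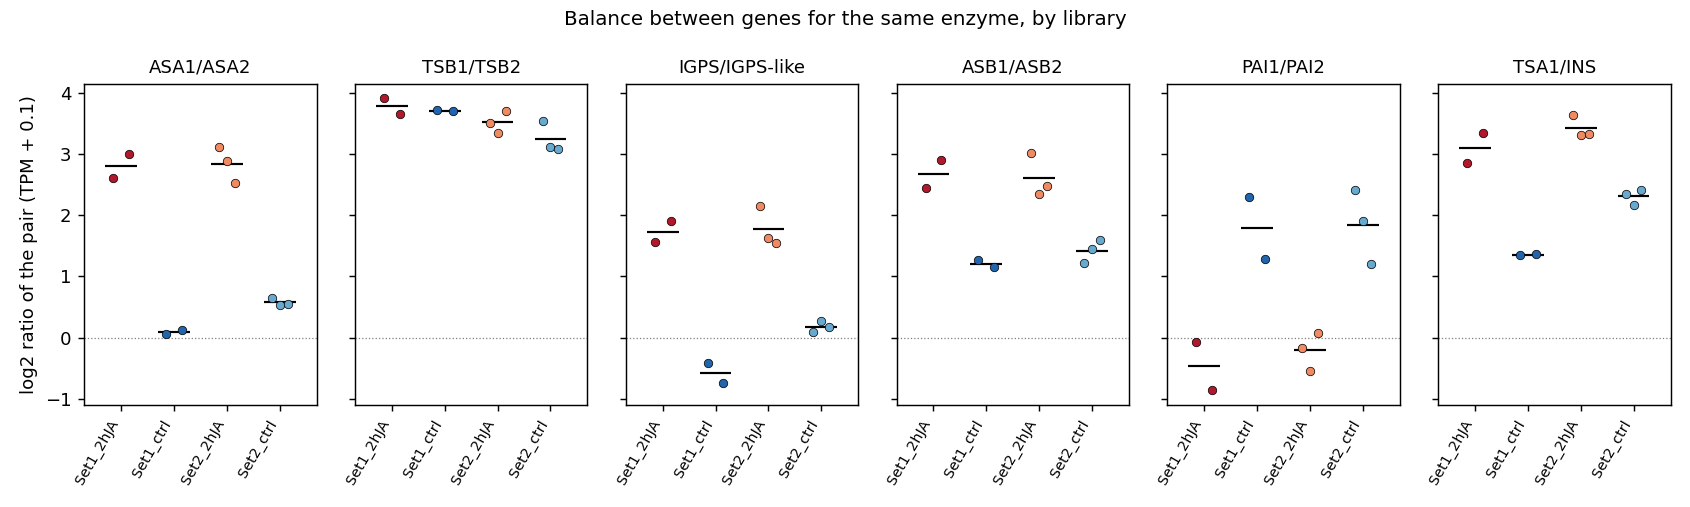
Log2 ratio of the TPM of 2 genes for the same step (TPM + 0.1) in each library (points) with the group mean (line), for Set1_2hJA, Set1_ctrl, Set2_2hJA and Set2_ctrl from left to right. With JA the ratio lies higher in 4 pairs and lower for PAI1/PAI2, while the TSB1/TSB2 points overlap.

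The order of the 10 genes by level also differed between the groups. In both groups of each set TSB1 came first and TSA1 second by mean TPM, and their ranges overlapped in Set2_ctrl only. Behind them came IGPS and ASA1 in Set1_2hJA (134 and 108 TPM) and in Set2_2hJA (159 and 150 TPM), with overlapping ranges. In Set1_ctrl ASA1 was in position 8 at 12.6 TPM, overlapping PAI1 above it and ASA2 below it. In Set2_ctrl it was likewise in position 8, at 30.2 TPM, overlapping PAI1 but not ASA2. TSB2 was last in both ctrl groups, at 6.75 TPM in Set1_ctrl and 11.3 TPM in Set2_ctrl, and ASA2 was last in both 2hJA groups, at 14.9 TPM in Set1_2hJA and 20.5 TPM in Set2_2hJA.

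The response was then compared between the experiments with a set by treatment interaction. None of the 10 genes passed it, and 0 of 20213 genes did in the main edgeR fit, where 1438 genes (7.11%) passed 0.05 before adjustment. DESeq2 called 150 genes, and the edgeR fit with the replicate number as a block called 61. With edgeR, 79 genes were called with no filter on low counts and 6 with organelle and ribosomal RNA genes removed. None of these fits called 1 of the 10. Of the 10 genes, 3 had an unadjusted p under this limit, all with a smaller log2 fold change in Set2: IGPS (difference −0.65, adjusted p = 0.365), PAT1 (−0.56, adjusted p = 0.482) and ASA1 (−0.62, adjusted p = 0.661). In untreated seedlings no gene of the 10 was called between the experiments in the main edgeR fit, where 4.07% of genes were called higher and 3.44% lower in Set2_ctrl. Of the 10, 4 had an unadjusted p of at most 0.05, as did 34% of all genes tested. ASA1 (log2 0.63, adjusted p = 0.0393) and IGPS (log2 0.44, adjusted p = 0.0448) were higher in Set2_ctrl at less than 2-fold, where 8.97% of genes were higher at this p with no fold limit. With single libraries left out, the log2 difference stayed between 0.49 and 0.78 for ASA1 and between 0.33 and 0.54 for IGPS, and the adjusted p was above 0.05 in 6 of 10 such fits for ASA1 (up to 0.253, without Set1_ctrl replicate 1) and in 9 of 10 for IGPS (up to 0.247, without Set1_ctrl replicate 2). It was 0.116 for IGPS with no filter on low counts in edgeR. With library totals only, the log2 difference was 1.08 for ASA1 and 0.91 for IGPS, where the median of all genes tested moved up by 0.46. With limma on log2(TPM + 1), which changes the unit and the tool as well, it was 1.25 for ASA1 and 1.10 for IGPS, where this median moved up by 0.58. Experiment, depth and library composition cannot be told apart in this comparison.

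The shikimate pathway supplies chorismate, and 1 of its 10 listed genes was induced in the fit of both sets, against 2.63% of 20213 genes. DHS1, for the first enzyme of that pathway, had 235 and 403 TPM in Set1_2hJA, against 27.6 and 55.1 TPM in Set1_ctrl, and 452, 315 and 268 TPM in Set2_2hJA, against 83.9, 70.0 and 79.2 TPM in Set2_ctrl. Its change of 5.32-fold (adjusted p = 3.6e-06) compares with 1.01-fold for DHS2 and 1.16-fold for DHS3, which encode the same enzyme and did not pass the test (adjusted p = 0.943 and 0.229). None of the other 7 genes passed it, and the median log2 fold change of the list was 0.17. In the branch from chorismate to phenylalanine and tyrosine 1 of 12 genes was induced, against the same 2.63% of all genes. The chorismate mutase gene CM3 had 40.0 and 56.5 TPM in Set1_2hJA, against 9.81 and 16.1 TPM in Set1_ctrl. In Set2 it had 63.7, 49.1 and 42.5 TPM in Set2_2hJA, against 13.4, 13.4 and 11.8 TPM in Set2_ctrl. CM3 changed 3.71-fold (adjusted p = 1.1e-06), and its expected counts were not whole in any library. A further 4 genes of this branch, ADT3, ADT4, ADT5 and TYRA1, had adjusted p-values between 0.00894 and 0.0431 at less than 2-fold (6.93% of all genes were higher and 6.67% lower at this p with no fold limit), and the median log2 fold change of the list was 0.40.

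Of 5 genes for enzymes that use tryptophan, the 2 that start indole glucosinolate and camalexin synthesis were induced. In the fit of both sets 2.63% of all genes tested were. CYP79B2 had 122 and 291 TPM in Set1_2hJA, against 23.4 and 40.9 TPM in Set1_ctrl, and 288, 249 and 232 TPM in Set2_2hJA, against 72.9, 64.9 and 84.6 TPM in Set2_ctrl. CYP79B3 had 152 and 300 TPM in Set1_2hJA, against 19.7 and 27.5 TPM in Set1_ctrl, and 201, 212 and 164 TPM in Set2_2hJA, against 35.2, 39.2 and 44.8 TPM in Set2_ctrl. Their changes in the fit of both sets were 4.20-fold (adjusted p = 1.25e-05) and 6.04-fold (adjusted p = 2.21e-06). The aminotransferase genes of auxin synthesis were not among the induced: TAR2 had a log2 fold change of −0.32 (adjusted p = 0.0349) and TAA1 one of −0.39 (adjusted p = 0.0505), both less than 2-fold, and TAR1 was too low to be tested.

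Of 7 transcription factor genes listed as regulators of indole metabolism or of the JA response, 2 were induced in the fit of both sets. Among all 20213 genes tested this share was 2.63%. MYC2 had 57.0 and 120 TPM in Set1_2hJA, against 3.56 and 8.68 TPM in Set1_ctrl, and 106, 86.1 and 57.2 TPM in Set2_2hJA, against 12.9, 5.39 and 3.36 TPM in Set2_ctrl, a change of 12.1-fold (adjusted p = 1.99e-05). Expected counts of MYC2 were not whole in any library. MYB34, an activator of ASA1 and of indole glucosinolate genes, had 93.3 and 169 TPM in Set1_2hJA, against 34.3 and 43.5 TPM in Set1_ctrl, and 113, 90.2 and 72.2 TPM in Set2_2hJA, against 56.8, 49.7 and 42.1 TPM in Set2_ctrl. MYB34 changed 2.22-fold (adjusted p = 0.000535), and in Set2 alone 1.85-fold (adjusted p = 0.0169), short of the threshold. Its Set2 value depended on single libraries: it was past the threshold without Set2_ctrl replicate 1 or Set2_2hJA replicate 3 (log2 1.02 each), and the adjusted p was 0.0837 without Set2_ctrl replicate 2, 0.0518 without Set2_ctrl replicate 3 and 0.0516 without Set2_2hJA replicate 2. MYB51 (adjusted p = 0.169), MYB122 (adjusted p = 0.278) and MYC4 (adjusted p = 0.296) did not pass the test, MYC3 passed at 1.32-fold (adjusted p = 0.022), and ERF109 was not tested. ASA1, TSB1 and TSB2 are also on the list of MYC2 core genes of the study, which was chosen partly on Set2 libraries, so their induction in Set2 is not independent of that list.

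**Figure D4:**
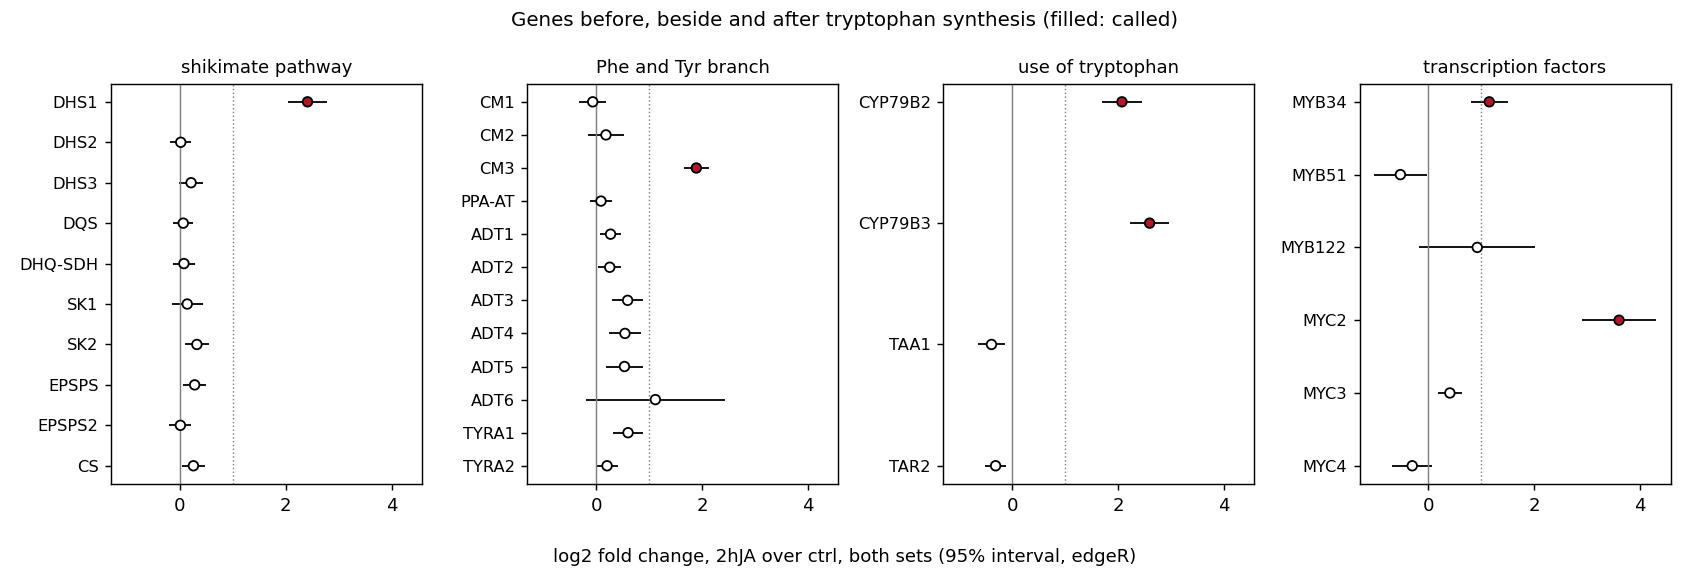
Log2 fold changes of 2hJA over ctrl in the fit of both sets with 95% intervals for genes of the shikimate pathway, the phenylalanine and tyrosine branch, the use of tryptophan and transcription factors (filled: called induced; dotted line: 2-fold). In each panel 1 or 2 genes were called induced, DHS1 (log2 2.41), CM3 (1.89), CYP79B2 (2.07) and CYP79B3 (2.59), and MYC2 (3.60) and MYB34 (1.15). ADT6 also lies past the dotted line (1.12, 95% interval −0.20 to 2.44) but was not called. TAR1 and ERF109 are missing because they were not tested.

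Likeness to ASA1 was measured as the Pearson correlation of log2 CPM, centred within each set, over the 10 libraries, which share the contrast between 2hJA and ctrl and their library depth. Among the other 9 genes it was 0.97 to 0.99 for the 6 induced genes, 0.56 for ASA2, 0.45 for PAI1 and −0.11 for IGPS-like. Of 18494 genes outside the lists whose log2 CPM averaged 1 or more, the 5 closest were OPR3 (AT2G06050, 0.998), AKN2 (AT4G39940, 0.997), OASC (AT3G59760, 0.997), TIFY7 (AT1G70700, also JAZ9, 0.997) and ATCSLA15 (AT4G13410, 0.996). They changed by 4.10, 2.30, 1.07, 4.74 and 3.83 on the log2 scale, in the same order, in the fit of both sets.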

How the data were processed

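RNA-seq libraries from 10 seedling samples (4 groups, taken from the sample titles) were analysed. Per the methods of the study and the submitters' processing notes, the authors aligned reads of a stranded, poly(A)-selected kit to TAIR10 with STAR (version 2.7.5a) and quantified genes with RSEM (version 1.3.3), and the replicates were biological. For each library the authors deposited expected counts, which are estimates that divide shared reads, and TPM, scaled by the authors to effective length and library total. The deposited edgeR tables, with log2 fold changes of the authors' own comparison, were not used.

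Expected counts were rounded and fitted with edgeR (version 4.0.16; filterByExpr, TMM, quasi-likelihood F test, Benjamini-Hochberg adjustment over all genes tested) in R (version 4.3.3). Calls required an adjusted p no higher than 0.05 and, except for the interaction, 2-fold or more. SE are the log2 fold change over the square root of F. Paralog ratios were tested by exact permutation within sets. Alternatives were other scalings, no filter, DESeq2 (version 1.42.0), limma (version 3.58.1) on log2(TPM + 1), removal of organelle and rRNA genes, the replicate block and leaving out each library. Fits were tested on simulated data.

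Deviations from the group mean of libraries with the same replicate number correlated at 0.49 in Set1 and at 0.25 to 0.28 in Set2, over 18547 genes, so that in Set2, with 3 pairs all over 0.1, the numbers were taken to pair the libraries; this rests on the data, not on the labels. Set1 numbers were taken from the sample titles; the deposited file names number the 2 Set1_ctrl libraries the other way round, with which the Set1 correlation would be −0.49, so the Set1 block and the naming of these libraries rest on the titles. RefSeq's TAIR10.1 gave coordinates, symbols and sequences; 99.3% of 21633 single-transcript genes had the same length there as in the deposited tables. Genes named were the 10 genes, their family copies, the called genes of 4 context lists (at most 4 a list) and the 5 genes most like ASA1. Other genes of these lists are named for contrast. The genes, lists and pairs were chosen with earlier results of these data known. Intervals of counts cover counting error only.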

Additional observations from a re-analysis of the deposited data

How the results depend on the processing

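Among the 10 genes, the number induced was 7 in Set1, 6 in Set2 and 7 in the fit of both sets under every other scaling, filter and tool tried, and the replicate block changed none of these counts (7, 6 and 7; interaction 0). Leaving out 1 library gave 6 to 7 in Set1 (6 without Set1_2hJA replicate 2), 6 to 7 in Set2 (7 without Set2_ctrl replicate 1), 7 in the fit of both sets and 0 for the interaction. A group left with 1 library in Set1 is assumed to vary like the other. For Set2_ctrl against Set1_ctrl the count of 0 became 1 with library totals only and 2 with limma on log2(TPM + 1), and no paired analysis was possible because replicate numbers of different experiments are not shared samples. The log2 fold change of IGPS-like changed sign around 0: it was 0.0078 and 0.0924 in Set1 and 0.029 and 0.0245 in the fit of both sets with library totals only and limma, and −0.0207 in Set2 with limma. Without 1 library it ranged from −0.0599 to 0.183 in Set2 and from −0.067 to 0.0636 in the fit of both sets. ASA2 ranged from −0.0165 to 0.114 in Set2. INS, at −0.00 in the fit of both sets, was 0.0483 and 0.0696 with library totals only and limma, and −0.0403 to 0.064 without 1 library. None of these passed the test in any setting. For the pair TSB1/TSB2 a pseudocount of 1 TPM gave a difference of 0.26 and an adjusted p of 0.05 by the exact test, which passes the threshold. The other 5 pairs kept their direction and call in the alternatives run, with adjusted p at the threshold of 0.05 under swaps within the Set2 pairs (replicate block), a test chosen after seeing the data that gave 0.25 for TSB1/TSB2. With Set1 paired as well, no pair could pass, since the smallest possible p is 0.0625. For MYB34 in Set2, leaving out 1 library gave adjusted p-values of 0.0137 to 0.0837, and a call without Set2_ctrl replicate 1 or Set2_2hJA replicate 3 (log2 1.02 each). The ASB-like and ADC synthase-like genes did not pass the filter on low counts, so their fold changes were not tested. In Set1, library totals only and limma on log2(TPM + 1) moved the median of all genes up by 0.12 and 0.17.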
